A study of Mus musculus with 9 samples.

Results

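The Janus kinases, the STAT proteins they activate and the feedback inhibitor SOCS1 were followed in the livers of mice given an antibody that activates CD40. The 9 genes Jak1, Jak2, Tyk2, Stat2, Stat4, Stat6, Stat5a, Stat5b and Socs1 were taken by name from a table of 24341 genes, and all 9 were among the 13807 genes whose level was high enough to be tested. The samples were livers of 9 wild-type C57BL/6 mice, collected 48 hours after treatment. Mice 2, 5 and 9 received the CD40 agonist antibody FGK45, a rat monoclonal, and mice 3, 4, 7, 8, 11 and 12 were controls, for which the labels give PBS. The study's methods say that treated mice without the usual loss of B cells from the blood were left out, so the anti-CD40 group may have been chosen in part on its response. The labels give no sex and no age. Xist, the RNA that coats the silent X chromosome, was present at 2.23 to 3.82 FPKM in every mouse, and 4 of 4 Y-linked genes examined were at the floor of the table in all 9, as in females.

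Each library was made from total RNA of whole liver by a method that reads transcripts from their 3′ end, and the authors gave the levels as FPKM, which are fragments per kilobase of a transcript's length, relative to library size. Because a 3′ read count does not grow with transcript length while FPKM divides by it, levels are compared below between mice for 1 gene and not between genes. Read totals are not part of the table, which leaves the depth of the libraries unknown, but the worth of 1 read in genes of low level gave relative depths of 0.991 to 1.13 for mice 2, 5 and 9 and 0.870 to 1.06 for the controls. Between 14684 and 15545 genes per mouse were above the floor of 0.01. Fold changes were fitted by limma on log2(FPKM + 0.1), anti-CD40 minus control, which understates the change of genes near 0.1 FPKM, and a gene was called at an adjusted p under 0.05 over all genes tested. The tests measure the spread between these mice from 1 experiment.

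Cytokine receptors of this family have no kinase activity of their own. Ligand binding brings together the Janus kinases held on the receptor tails, which phosphorylate the receptor and then the STATs, and the STATs enter the nucleus as dimers to switch on target genes. SOCS1 is made in response to the same signal and blocks the kinases, closing a feedback loop. In the liver the pathway carries growth hormone signals through STAT5, interferon signals through STAT2 and interleukin signals through other STATs. Activation of the proteins by phosphorylation is not seen in RNA, so the values below concern only the supply of transcripts.

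Of the 9 genes, 5 rose, 1 fell and 3 were not called. Across all genes tested, 45.1% were called, 23.5% as higher and 21.7% as lower. The 6 called genes were also the 6 whose groups did not overlap, against 42.4% of all genes. The log2 fold change was positive for 7 of the 9 and had a median of 0.45 over them, beside 0.01 over all genes tested. By role, 2 of 3 kinases rose, Stat2 and Stat4 rose, Stat5b fell on the scale as deposited, Stat6 and Stat5a were not called, and Socs1 had the greatest fold change of the 9.

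**Figure D1:**
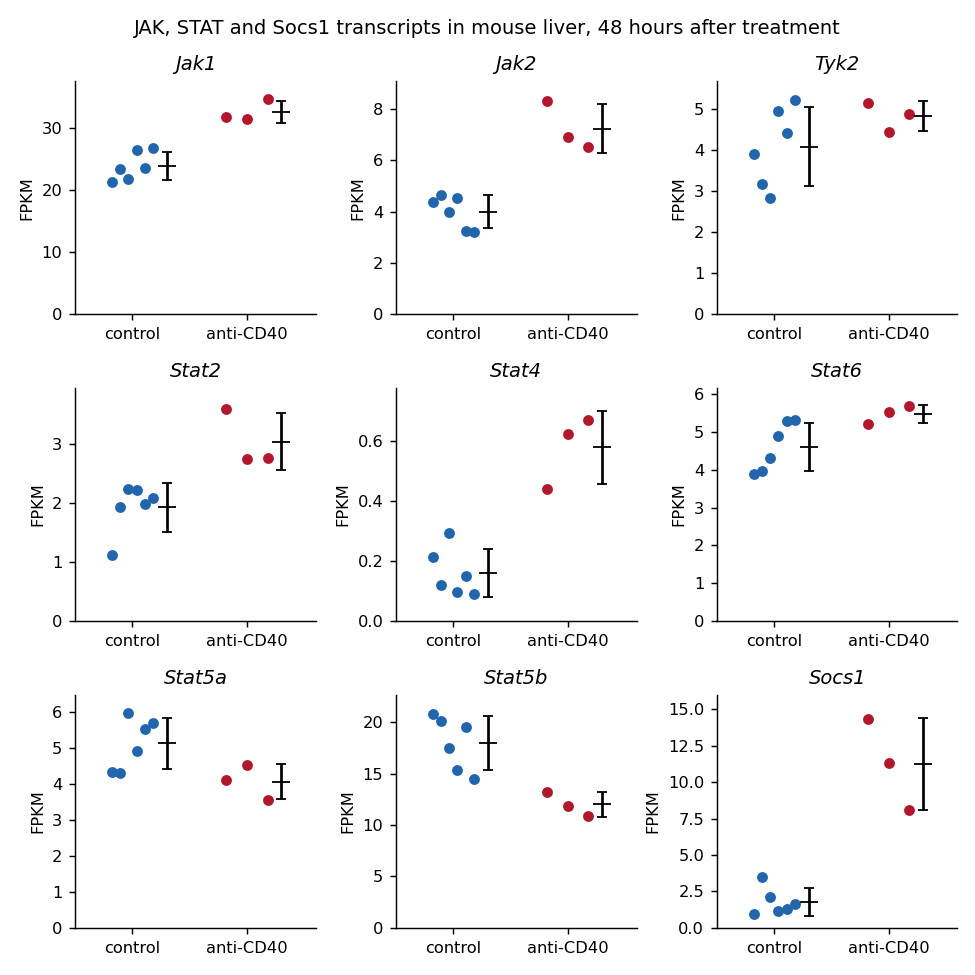
FPKM (vertical axes, from 0) of each of the 9 genes in the 6 control mice (blue, ordered by mouse number) and the 3 anti-CD40 mice (red), with the mean and SD of each group as a black bar. The groups are separate for Jak1, Jak2, Stat2, Stat4, Stat5b and Socs1 and overlap for Tyk2, Stat6 and Stat5a.

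Jak1 is the kinase used by most receptors of the family, including those for interferons and for IL-6. Its level was 31.8, 31.5 and 34.7 FPKM in anti-CD40 mice 2, 5 and 9, and ran from 21.2 over a median of 23.5 to 26.8 in the controls. Every anti-CD40 mouse was above every control. The means were 32.7 ± 1.77 (SD, n = 3) and 23.9 ± 2.32 (n = 6), and the log2 fold change was 0.45 (SE 0.11, limma adjusted p = 0.00645, exact permutation p = 0.0238, the smallest that 84 splits of the mice allow). Jak1 also had the tightest controls of the 9 genes, with a coefficient of variation of 9.72%. The gene lies at chr4:101069038-101265282 in the table (mm10, minus strand). That interval reaches 83329 bases past the 3′ end of the gene in GENCODE M21 and takes in Raver2, on the opposite strand. Raver2 itself was low, with a fold change of -0.52 on the log2 scale (adjusted p = 0.132).

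Jak2 serves receptors for growth hormone, erythropoietin and IFN-γ, and pairs with Tyk2 below the IL-12 receptor. It was at 8.29, 6.89 and 6.52 FPKM in mice 2, 5 and 9, whereas the controls lay between 3.19 and 4.66 with a median of 4.16. The groups were clearly separate, with the lowest anti-CD40 mouse above the highest control. The mean rose from 3.99 ± 0.645 to 7.23 ± 0.936, which is 1.81 times the control mean (log2 fold change 0.85, SE 0.16, adjusted p = 0.00152). The gene spans chr19:29251803-29313080 on the plus strand, and no other gene of the table or of GENCODE overlaps its 3′ end.

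Tyk2, the partner kinase of the type I interferon and IL-12 receptors, did not pass the test. Its levels of 5.15, 4.44 and 4.88 FPKM in mice 2, 5 and 9 lay inside the control range of 2.82 to 5.22, whose median was 4.16. The log2 fold change was 0.27 with a 95% confidence interval of -0.17 to 0.71 (adjusted p = 0.300, exact permutation p = 0.310), an interval that includes both no change and a change as large as that of Jak1. The control mice spread widely, with a coefficient of variation of 23.5%. Tyk2 lies at chr9:21104068-21131275 on the minus strand, where the antisense RNA 1700084C06Rik crosses its 3′ end in GENCODE. Whether the authors' counting used strand is not given in the sources used here.

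Stat2 is the STAT that joins another STAT and IRF9 to form the complex through which type I and type III interferons act. It was at 3.60, 2.76 and 2.78 FPKM in mice 2, 5 and 9, and between 1.12 and 2.24 with a median of 2.04 in the controls. The groups did not overlap, though control mouse 3, at 1.12, was well below the other controls. The mean was 1.57 times that of the controls (3.05 ± 0.484 against 1.93 ± 0.415), with a log2 fold change of 0.65 (SE 0.21, adjusted p = 0.0301, exact permutation p = 0.0238). The call was lost when any 1 anti-CD40 mouse was left out, with an adjusted p of 0.135 without mouse 2, 0.0556 without mouse 5 and 0.0584 without mouse 9, while the log2 fold change stayed between 0.51 and 0.71 over all 9 omissions. Stat2 lies at chr10:128270576-128292849 on the plus strand.

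Stat4, which carries IL-12 signals in T and NK cells, was detected in every mouse. It was at 0.440, 0.624 and 0.670 FPKM in mice 2, 5 and 9, and between 0.0903 and 0.294 with a median of 0.136 in the controls. All 3 anti-CD40 mice were above all 6 controls. The mean was 3.60 times the control mean (0.578 ± 0.122 against 0.161 ± 0.0793), and the fitted log2 fold change was 1.41 (SE 0.27, adjusted p = 0.00172). The smallest whole reads that reproduce these values are 24, 32 and 32 in mice 2, 5 and 9, against 4 to 15 in the 5 controls that gave whole reads within 0.1 of a read. Mouse 4 gave 6.18 and so did not come out whole. At such counts the fold depends on the constant added before taking logs, with a log2 fold change of 1.88 for 0.01 and 0.44 for 1, and the call held for both. Stat4 lies at chr1:51987148-52107189 on the plus strand, where the processed transcript Gm28177, on the same strand, crosses its 3′ end in GENCODE. In the last 500 bases of the coding transcripts of Stat4, 1 of 456 stretches of 50 bases also occurs in Gm28177.

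Stat6, the STAT of the IL-4 and IL-13 receptors, was at 5.22, 5.52 and 5.69 FPKM in mice 2, 5 and 9. The controls ran from 3.90 over a median of 4.60 to 5.31. Anti-CD40 mice 5 and 9 were above every control, and mouse 2 lay below controls 11 and 12. The log2 fold change of 0.25 (95% confidence interval -0.05 to 0.56) was not called (adjusted p = 0.154, exact permutation p = 0.0714). The interval of the table, chr10:127642986-127666703, extends 5746 bases beyond Stat6 in GENCODE and overlaps Nab2 on the other strand, whose own fold change was 0.19 on the log2 scale (adjusted p = 0.545).

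Stat5a and Stat5b are neighbouring genes whose proteins act below growth hormone, prolactin and the common γ chain cytokines, and STAT5B is the main form in hepatocytes. Stat5b was at 13.2, 11.8 and 10.9 FPKM in mice 2, 5 and 9, and between 14.5 and 20.8 with a median of 18.5 in the controls. Every anti-CD40 mouse was below every control. The anti-CD40 mean of 12.0 ± 1.18 was 66.7% of the control mean of 18.0 ± 2.62 (log2 fold change -0.57, SE 0.14, adjusted p = 0.00775, exact permutation p = 0.0238), and Stat5b was the only one of the 9 genes called as lower. Stat5b lies at chr11:100780731-100850585 on the minus strand.

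Stat5a followed Stat5b in direction but did not pass the test. It was at 4.12, 4.52 and 3.56 FPKM in mice 2, 5 and 9, and ran from 4.33 over a median of 5.23 to 5.99 in the controls. Mice 2 and 9 were below every control, and mouse 5 was above 2 of them. The log2 fold change was -0.33 (adjusted p = 0.0949, exact permutation p = 0.0714), and 0.03 on the scale without Saa1, Saa2 and Saa3 described after Socs1. Stat5a lies at chr11:100859351-100885169 on the plus strand, where Stat3, on the minus strand, crosses its 3′ end in GENCODE. Stat3 changed by 1.07 on the log2 scale (adjusted p = 4.59e-04), opposite in sign to Stat5a. In the last 500 bases of the coding transcripts of Stat5a, 60 of 1072 stretches of 50 bases also occur in Stat5b, while none of 451 in the last 500 bases of Stat5b occur in another gene, so part of the Stat5a reads could belong to either gene.

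Socs1 encodes the feedback inhibitor that binds the Janus kinases and stops them. It was at 14.3, 11.3 and 8.08 FPKM in mice 2, 5 and 9, and between 0.931 and 3.49 with a median of 1.47 in the controls, of which mouse 4 was the highest. The lowest anti-CD40 mouse was still above the highest control. The means were 11.2 ± 3.13 and 1.77 ± 0.936, a ratio of 6.35, and the log2 fold change was 2.69 (SE 0.36, adjusted p = 1.69e-04, exact permutation p = 0.0238), a fold of 6.46 with a 95% confidence interval of 3.72 to 11.2. This change lay above those of 97.2% of all genes tested, beside 90.2% for Stat4, 83.2% for Jak2, 78.7% for Stat2 and 72.6% for Jak1. The smallest whole reads that give the 6 control values are 18 to 73. By the same worth of 1 read the anti-CD40 values come to about 322, 239 and 159 reads, which are too many to check for being whole. Socs1, a short gene, lies at chr16:10783809-10785536 on the minus strand, and its interval in the table stops 1569 bases before the 3′ end that GENCODE gives it.

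FPKM values are relative to all that was mapped in a library, and the scale chosen moves every gene. When the acute phase genes Saa1, Saa2 and Saa3 were removed and the mice brought to equal totals, the median of all genes tested shifted on the log2 scale from 0.01 to 0.35. On that scale Stat5b, at -0.21, was no longer called (adjusted p = 0.312), Stat5a turned to 0.03 (adjusted p = 0.859), and Tyk2 at 0.63 (adjusted p = 0.0136) and Stat6 at 0.61 (adjusted p = 0.00215) were called as higher. Jak1, Jak2, Stat2, Stat4 and Socs1 kept their calls, with values from 0.82 for Jak1 to 3.05 for Socs1. Relative to the median of all genes the values could hardly move, because each mouse was multiplied by 1 factor. They went from -0.58 to -0.56 for Stat5b, from -0.33 to -0.32 for Stat5a, from 0.45 to 0.47 for Jak1 and from 2.69 to 2.70 for Socs1. That Stat5b lay below the median gene on both scales follows from this rescaling and is no separate result. Whether Stat5b was called depended on the scale. Its call was lost only with Saa1, Saa2 and Saa3 left out and held in 19 of 20 alternatives. These included quantile normalization (-0.49, limma adjusted p = 0.0167) and scaling by the median of gene ratios (-0.57, limma adjusted p = 0.00788).

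**Figure D2:**
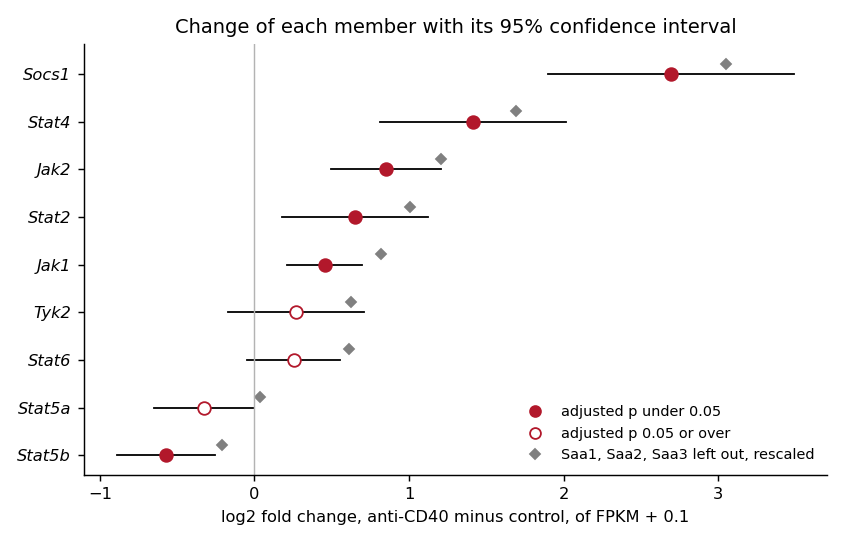
Log2 fold change (horizontal axis, anti-CD40 minus control, of FPKM + 0.1) of each gene with its 95% confidence interval as a line, filled where the adjusted p was under 0.05, and grey diamonds for the values with Saa1, Saa2 and Saa3 left out and each mouse rescaled. Socs1 is highest at 2.69 and Stat5b lowest at -0.57, and every diamond lies to the right of its circle.

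The ratio of 2 genes within a mouse does not depend on how the mouse was scaled. This comparison was added after the values were known and is given as a description, with no test. It covered 13 pairs, 3 among the kinases and 10 among the STATs. In 7 pairs the groups did not overlap, which for Stat2 to Stat5b and Stat4 to Stat5b already follows from the levels of the single genes. All 7 set Stat5a or Stat5b against another STAT or Stat4 against Stat6. The log2 ratio of Stat5b to Stat6 ran from 0.94 in mouse 9 to 1.34 in mouse 2 after anti-CD40, below all controls at 1.45 to 2.42, a difference of -0.83 between the group means, so that Stat5b per Stat6 was at 0.561 of its control value. Stat5a per Stat6 differed by -0.59 and was at 0.664 of its control value. The level of Stat5a and that of Stat6 each overlapped between the groups, while their ratio did not.

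The log2 ratio of Stat2 to Stat5a differed by 1.01 between the groups and that of Stat2 to Stat5b by 1.25. For Stat4 the differences were 2.29 to Stat5a, 2.53 to Stat5b and 1.70 to Stat6, with the low reads of Stat4 behind each. The ratio of Stat5a to Stat5b differed by 0.24 and overlapped between the groups. The 3 kinase pairs overlapped, with differences of -0.41 for Jak1 to Jak2, 0.59 for Jak2 to Tyk2 and 0.18 for Jak1 to Tyk2. The remaining pairs, Stat2 to Stat4 at -1.28 and Stat2 to Stat6 at 0.42, overlapped as well. Leaving out each mouse in turn turned the sign of none of the 13 ratios.

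**Figure D3:**
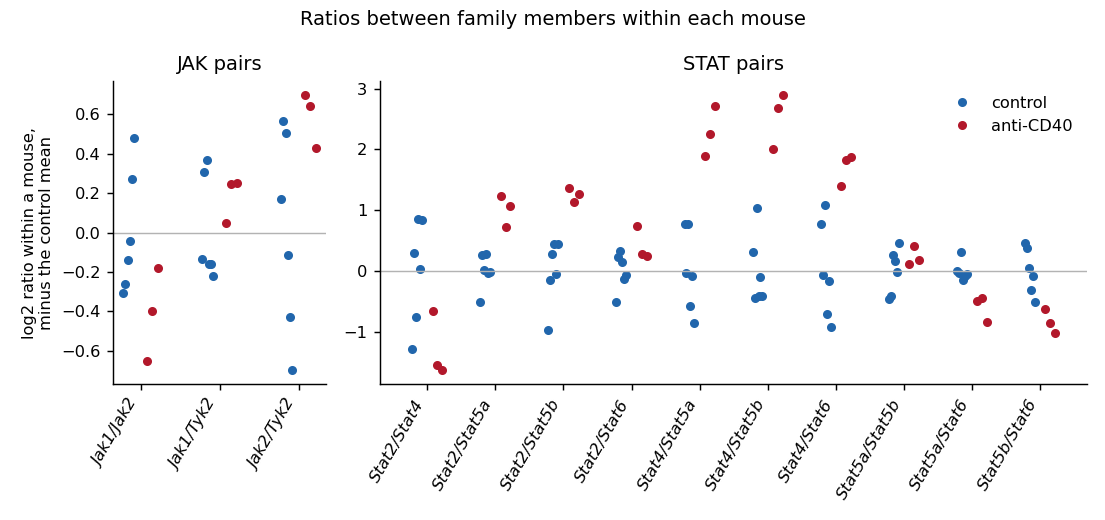
Log2 ratio of 2 genes within each mouse minus its control mean (vertical axes, the 2 panels with different ranges) for 3 pairs of kinases and 10 pairs of STATs, with the 6 control mice in blue and the 3 anti-CD40 mice in red. The groups are separate for the 7 pairs that set Stat2, Stat4 or Stat6 against Stat5a or Stat5b, or Stat4 against Stat6, and overlap for all 3 kinase pairs.

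The promoters of the 9 genes were read for the letters that STAT complexes are known to bind. The interferon-stimulated response element, searched as GAAANNGAAA on both strands from 250 bases before to 50 bases after the start, is the site of the complex that holds STAT2. It occurred in 3 of the 9 genes (33.3%), Socs1, Stat2 and Stat4, and in 3.99% of 27025 genes with a promoter sequence. Of 22 listed targets of STAT2 with IRF9, a list that holds Stat2 itself, 59.1% had it. Those 3 were among the 5 genes that rose, and neither Jak1 nor Jak2 held the letters in this window. The palindrome TTCNNNGAA, the form that most STAT dimers bind, was in 0 of the 9 against 9.55% of all genes. The wider TTCNNNNGAA of STAT6 was in 1, Stat2, against 8.01%. Among 6 other genes of the JAK, STAT and SOCS family with a promoter sequence, the response element was in 0. In the same 6 genes the palindrome was in 2 and the wider form in 1.

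The 3 promoters that held the element are given from base 230 to base 31 before the start, with the matches in capitals (RefSeq, GRCm38.p6, each written along the gene's own strand). Socs1 is at chr16:10785567-10785766 on the minus strand, Stat2 at chr10:128270268-128270467 on the plus strand, and Stat4 at chr1:52008010-52008209 on the plus strand, before the second annotated start of Stat4 and inside an intron of its longer transcripts.
Socs1: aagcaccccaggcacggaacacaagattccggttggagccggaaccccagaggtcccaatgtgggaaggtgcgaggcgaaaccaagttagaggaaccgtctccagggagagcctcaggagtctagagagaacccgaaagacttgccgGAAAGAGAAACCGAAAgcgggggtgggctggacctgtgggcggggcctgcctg
Stat2: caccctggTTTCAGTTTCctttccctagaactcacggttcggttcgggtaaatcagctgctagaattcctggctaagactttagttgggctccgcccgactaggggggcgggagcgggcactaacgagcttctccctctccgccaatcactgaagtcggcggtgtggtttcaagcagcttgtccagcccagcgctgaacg
Stat4: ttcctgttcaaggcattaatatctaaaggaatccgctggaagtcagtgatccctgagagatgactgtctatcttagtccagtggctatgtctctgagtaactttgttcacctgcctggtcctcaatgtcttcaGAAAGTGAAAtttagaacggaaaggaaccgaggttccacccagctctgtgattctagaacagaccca
Socs1 held 2 matches that overlap, beginning 83 and 77 bases before its start, the match of Stat2 began 222 bases before the start and reads on the opposite strand, and that of Stat4 began 97 bases before the second start. A match of letters is a description and no measure of binding.

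The genes that act around the 9 were followed in lists of related genes, 175 in all without the 9. Of 141 that were tested, 82 rose and 16 fell, with a median log2 fold change of 1.04. The counts of each list stand beside 45.1% called over all genes tested, 23.5% as higher and 21.7% as lower. Among the other family genes and the other negative regulators the share called was near 45.1%, with every call as higher. Among 11 other genes of the JAK, STAT and SOCS family 5 rose and 6 were not called, and 8 were called higher on the scale without Saa1, Saa2 and Saa3. They included Socs3, the inhibitor induced by IL-6, at 7.26 ± 0.968 against 1.31 ± 0.628 FPKM (log2 fold change 2.50, adjusted p = 2.20e-04), and Jak3, the kinase of the common γ chain, at 0.816 ± 0.207 against 0.248 ± 0.0865 (1.40, adjusted p = 0.00103). Of 14 other negative regulators 7 rose and 7 were not called (11 called higher on that scale), led by the phosphatases Ptprc (2.60) and Ptpn6 (1.56) and by Usp18 (2.05), which shuts off the type I interferon receptor.

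Upstream, 22 of 33 tested receptor subunits rose and 5 fell. The largest increases were in Il9r (log2 fold change 3.92), Il21r (3.76) and Il2rg (3.07), all receptor subunits of the common γ chain group that signals through JAK1 and JAK3, and Il2rg went from 1.87 to 15.8 FPKM. The 5 that fell, named after their values were seen, were Ghr (-1.68), Prlr (-2.48), Lifr (-2.93), Epor (-0.98) and Il11ra1 (-1.01). Ghr, Prlr and Epor encode receptors that signal through JAK2 and STAT5. This does not set them apart, since Csf2ra (1.91) and Csf2rb (2.01), whose receptor also uses JAK2 and STAT5, rose. Of 37 ligands, 24 were too low to test, with 13 at the floor in all mice. Those at the floor included the type I and type III interferon genes Ifna2, Ifna4, Ifna5, Ifnl2 and Ifnl3. No interferon gene was among the ligands tested. Among the 13 tested, 8 rose and 1, Ctf1, named after its value was seen, fell, a call lost on the scale without Saa1, Saa2 and Saa3. Il11 (4.43) and Il12b (3.82) rose from 0.0885 and 0.110 to 4.04 and 2.70 FPKM. Il12b encodes a subunit shared by IL-12, which acts through JAK2, TYK2 and STAT4, and IL-23. Il23a, the other subunit of IL-23, also rose (2.27), while Il12a, that of IL-12, was not among the 13 tested. Clcf1, a ligand of the IL-6 family, had a log2 fold change of 2.53.

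**Figure D4:**
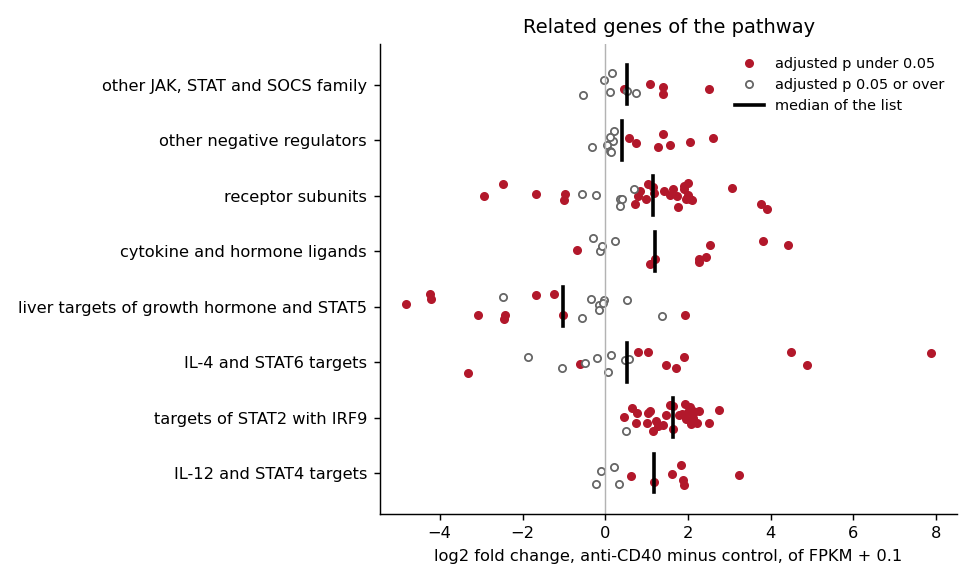
Log2 fold change (horizontal axis, anti-CD40 minus control, of FPKM + 0.1) of each tested gene in 8 lists of related genes, filled red where the adjusted p was under 0.05, with the median of each list as a black bar. The bar of the growth hormone and STAT5 targets lies at -1.01 and those of the other 7 lists lie above 0, with the targets of STAT2 and IRF9 at 1.64.

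Downstream, 29 of 30 listed targets of STAT2 with IRF9 rose, with a median log2 fold change of 1.64, and 1, Bst2, named after its value was seen, was not called at 0.50. The list holds Stat2 itself. The leading 3 were the interferon-induced genes Ifi44 (16.3 against 2.39 FPKM, log2 fold change 2.75), Oasl2 (2.51) and Ifit2 (2.26), beside 0.65 for Stat2. Of 11 tested targets of IL-12 and STAT4, 7 rose, led by the cytotoxic granule gene Gzmb (3.23), the transcription factor Tbx21 (1.90) and the receptor subunit Il18r1 (1.87). Of 18 tested targets of IL-4 and STAT6, 8 rose and 2 fell, or 10 and 1 without Saa1, Saa2 and Saa3. The increases were led by Chil3 (7.88), Fcer2a (4.87) and Ccl22 (4.48), and the decreases, named after their values were seen, were Ccl24 (-3.32) and Mrc1 (-0.62). The 8 not called as deposited, also named with values seen, included Arg1 (-0.20), Retnla (-1.87) and Mgl2 (-1.04). Fcer2a is also a gene of B cells, whose markers rose as given below. Chil3, which is also a gene of neutrophils and macrophages, was at 40.0 FPKM in the anti-CD40 mice and 0.0879 in the controls.

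Of 19 tested liver targets of growth hormone and STAT5, 9 fell and 1 rose, with a median log2 fold change of -1.01. The largest decreases were in the urinary protein genes Mup1 (1.20 ± 0.942 against 35.8 ± 16.9 FPKM, -4.82) and Mup3 (76.5 ± 25.2 against 1539 ± 616, -4.23) and in the transporter Slco1a1 (0.453 ± 0.153 against 14.2 ± 12.0, -4.21). Mup genes are near-identical copies, so reads may be shared among them. Outside the rule for naming genes, and with their values seen, 3 textbook targets are added. Igf1, the growth factor that growth hormone induces in the liver, fell by 1.01 on the log2 scale. The 1 gene that rose, named after its value was seen, was Gadd45g (1.92). Cish and Socs2, the feedback inhibitors that STAT5 induces, were not called, at 0.53 and -0.04. On the scale without Saa1, Saa2 and Saa3 the median of the list was -0.65, with 9 genes called lower and 2 higher.

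The tissue is a mixture of cells, and fewer cells of a type cannot be told apart from less RNA per cell. Markers of several cell types moved with treatment. Of 8 hepatocyte markers, 7 fell and 1 rose, with a median log2 fold change of -1.25. With quantile normalization 6 were called lower, as on the scale without Saa1, Saa2 and Saa3. Their summed level was 4659 to 5656 FPKM against 13439 to 24357. Alb, a defining marker, stayed well above the floor at 774 to 1075 against 4063 to 6626. Of 7 Kupffer cell markers 6 fell, with a summed level of 56.2 to 73.4 against 302 to 481 FPKM. Summed T cell markers were at 13.0 to 14.8 against 3.29 to 5.85 FPKM (7 of 8 higher, or 4 with quantile normalization). NK cell markers were at 79.5 to 108 against 6.59 to 18.5 (7 of 7 tested, or 5 with quantile normalization). B cell markers were at 25.5 to 36.1 against 1.85 to 7.41 (5 of 5 tested). Neutrophil markers were at 4204 to 5185 against 18.1 to 152 (6 of 6 tested), and the listed marker Ly6g had no values. These sums compare mice and not cell types, and a few genes of high FPKM dominate some of them. After anti-CD40 the neutrophil sum was mostly S100a8 and S100a9 (means 3316 and 1437 FPKM). The NK cell sum was mostly Gzma (72.3). Of the other lists, 5 of 7 monocyte or macrophage markers rose and 1 fell, 3 of 5 stellate cell markers fell, 2 of 6 endothelial markers rose and 1 fell (4 rose, and the decrease lost its call, on the scale without Saa1, Saa2 and Saa3), and 1 of 4 cholangiocyte markers rose. Of all these markers, those of the exocrine pancreas alone included one, Amy2a5, at the floor in every mouse. Stat4 and Jak3, which are mostly expressed in lymphoid cells, rose beside these lists, and Stat5b, Ghr, Mup1 and Mup3 fell beside the hepatocyte list. Ptprc and Ptpn6, named above among the negative regulators, also rose beside the T cell, NK cell, B cell and neutrophil lists. The part of the cell mixture in any of these results was not tested.

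Exocrine pancreas markers set 1 library apart. Prss2, a trypsinogen, was at 102 FPKM in anti-CD40 mouse 5 and at most 0.582 in every other mouse. The 5 members of the pathway called as higher and Stat5b, the 1 called as lower, showed the same sign without mouse 5, and Stat2 was the only one of the 6 to lose its call.

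The genes most like each called member over the 9 mice were found from the differences in log2(FPKM + 0.1) after centring on the controls. For Socs1 these were Ly9 and S100a11, with root mean square differences of 0.249 and 0.269. For the kinases they were Supt5 (0.0585) and Ssrp1 (0.0597) beside Jak1, and Erap1 (0.0961) and Itsn2 (0.105) beside Jak2. For the STATs they were Smarcb1 (0.135) and Pla2g16 (0.141) beside Stat2, Jam2 (0.163) and Zfp872 (0.200) beside Stat4, and Rfwd2 (0.0937) and Dpm1 (0.0966) beside Stat5b. Every gene has a nearest gene, and this difference tends to be larger where the change and the spread are larger. The match was closest for Jak1, with the smallest change of the 6 called members (0.45). It was loosest for Socs1, with the largest (2.69), so the order is no result about likeness. Socs1 also had the widest spread among controls, with a coefficient of variation of 52.9% beside 49.3% for Stat4.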

How the data were processed

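RNA from the livers of 9 mice (3 anti-CD40, 6 control) was sequenced from the 3′ end with a QuantSeq kit on a NextSeq 500. Alignment to mm10 by STAR, in Illumina's BaseSpace, and estimation by Cufflinks and CuffDiff were done by the authors, who deposited 1 FPKM per gene and mouse. The annotation and the table's filter are not given in the sources used here. Groups and mouse numbers came from the sample labels.

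After removal of 15 genes that had failed estimates, 24326 remained. The deposited FPKM, without further scaling, were tested as log2(FPKM + 0.1) in genes with a mean of at least 0.1, by limma 3.58.1 in R 4.3.3 (2-sided, with trended eBayes, no covariate, and Benjamini-Hochberg adjustment at 0.05). CuffDiff needs reads and was not rerun. Single values were tested by an exact permutation of means over all 84 splits, 2-sided. Python 3.11.15, numpy 2.4.6, pandas 2.3.3 and scipy 1.17.1 did the other steps. Scripts were tested on simulated data. Intervals based on reads were not computed, and a count test was not run, since whole reads (within 0.1) came out for Stat4 and Socs1 alone.

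The members and lists were chosen with earlier results of these data known. All members are named, with up to 3 genes per related list by size of change among those called and not overlapping between groups, and the 2 genes most like each called member. Genes named outside this rule, such as neighbours in the genome, were chosen after their values were seen. The lists come from general knowledge and share some genes. Alternatives were other pseudocounts, filters, scalings and eBayes settings, array weights, stricter calls and leaving out each mouse. The pair ratios and their omissions were chosen after seeing the data. Positions are 1-based from the deposited table, strands and overlaps from GENCODE M21. Protein sequences were not used here.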

Additional observations from a re-analysis of the deposited data

Results flagged for a closer look

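Among 22 sets of control values examined, the level of each gene and each pair ratio, 2 held a mouse far from the others, where chance gives about 1.1. For Stat2 it was control mouse 3, the lowest at 1.12 FPKM. On the scale of log2(FPKM + 0.1), its gap to the next mouse was 0.779 of the range of the controls. Without mouse 3 the log2 fold change of Stat2 was 0.51 and the call held (limma adjusted p = 0.0173). For the ratio of Stat5a to Stat6 it was control mouse 7, the highest at 0.48 on the log2 scale, with a gap of 0.697 of the range. Over the omission of each mouse the change in this ratio lay between -0.67 and -0.47.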

How the results depend on the processing

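Jak1 (log2 fold change 0.41 to 0.82), Jak2 (0.73 to 1.21) and Socs1 (2.17 to 3.05) kept direction and call under all 20 alternatives tried for each, and Stat4 (0.44 to 1.88) under 19. Stat4 has no value with a mean FPKM of at least 1, since its own mean is lower. Stat2 lost its call in 5, with 0.65 without a filter on low values (adjusted p = 0.0710), where more genes are tested, 0.45 with quantile normalization (adjusted p = 0.0985), and without anti-CD40 mouse 2, 5 or 9. Its range over the omission of each mouse was 0.51 to 0.71. Stat5a was called at -0.45 with quantile normalization (adjusted p = 0.0250) and at -0.34 with array weights (adjusted p = 0.0497). Rescaling without Saa1, Saa2 and Saa3 turned Stat5a to 0.033, took the call from Stat5b (-0.21) and gave one to Stat6 (0.61) and Tyk2 (0.63). It called 5635 genes higher and 1647 lower, against 3240 and 2990 as deposited and 2990 and 3456 with quantile normalization. The other causes were not tested. Asking for a fold change of at least 2 as well left 3142 genes and 2 members (Stat4 and Socs1). The count of related genes called, 98, stayed between 72 and 110. No paired analysis was possible because the groups share no mouse numbers. Depth limits Stat4, for which the smallest whole reads that reproduce its values were 4 to 32, with control mouse 4 not whole.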
